A study of Caenorhabditis elegans with 2 samples.

Results

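The 30 genes described here were listed for mitochondrial fatty acid oxidation in Caenorhabditis elegans, a list that lacks some genes of the pathway. The question is which of the 30 carry a peak of the transcription factor HLH-11 at their start. They were taken from a list by name: the acyl-CoA synthetase acs-2, the carnitine palmitoyltransferases cpt-1 to cpt-6, the acyl-CoA dehydrogenases acdh-2 to acdh-13, 7 genes of the enoyl-CoA hydratase and isomerase family, the hydroxyacyl-CoA dehydrogenase hacd-1, the thiolases kat-1 and acaa-2, and let-721. All 30 were matched among 19973 protein-coding genes of the reference. The binding data come from ChIP-seq, which sequences the DNA recovered with a protein by an antibody, in 1 group of 2 biological replicates of whole worms, so no conditions were compared. The worms were of strain OP396, genotype unc-119(tm4063) III; wgIs396, in which wgIs396 is the insertion for hlh-11 and the protein carries a C-terminal GFP-FLAG tag that was pulled down with anti-GFP. They were L4 larvae of both sexes at 53 hours, synchronised by starvation of L1 larvae after bleaching. The tagged protein comes from a transgene, the control was not analysed here, and whole larvae do not show in which tissue a site was occupied.

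Beta-oxidation shortens fatty acids inside mitochondria. A synthetase first joins the fatty acid to coenzyme A, carnitine palmitoyltransferases move the acyl group across the mitochondrial membranes, and then a dehydrogenase, a hydratase, a second dehydrogenase and a thiolase act in turn to release acetyl-CoA. The electrons taken by the acyl-CoA dehydrogenases reach ubiquinone through the electron transfer flavoprotein and its oxidoreductase. In worms the pathway runs strongly in the intestine, the main site of fat storage, and acs-2 is known as a gene induced by fasting through the nuclear receptor NHR-49. HLH-11 itself is the worm relative of mammalian AP-4, of the basic helix-loop-helix class, whose members bind E-boxes of the form CANNTG.

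Sequences under 9 of the peaks are shown first, because they carry the letters that differ among the bound genes. Each line gives 101 bases of build ce11 (read from the RefSeq WBcel235 genome), 50 to either side of the summit (base 51), on the strand of the gene. Capitals mark E-boxes, the GATA-type sequences CTTATC and TGATAA, and GCGTCTC, each in either orientation. The first group holds CACATG, which reads CATGTG on the other strand. Its windows are chrV:15566642-15566742 (plus strand) for acs-2, chrIII:6447679-6447779 (minus) for let-721, chrV:5027800-5027900 (minus) for cpt-4 and chrII:7196154-7196254 (minus) for acdh-12.
acs-2: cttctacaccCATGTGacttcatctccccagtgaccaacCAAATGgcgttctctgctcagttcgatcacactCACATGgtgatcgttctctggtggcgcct
let-721: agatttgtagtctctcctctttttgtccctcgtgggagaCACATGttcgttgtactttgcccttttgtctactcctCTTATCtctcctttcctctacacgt
cpt-4: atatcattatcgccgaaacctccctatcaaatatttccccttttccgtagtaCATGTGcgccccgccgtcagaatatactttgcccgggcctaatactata
acdh-12: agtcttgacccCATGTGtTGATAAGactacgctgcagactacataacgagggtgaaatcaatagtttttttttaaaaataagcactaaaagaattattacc

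The second group has a GATA-type sequence near the summit and no E-box. Its windows are chrV:1459618-1459718 (plus) for hacd-1 and chrIII:13344730-13344830 (plus) for acaa-2, and acaa-2 also has GCGTCTC.
hacd-1: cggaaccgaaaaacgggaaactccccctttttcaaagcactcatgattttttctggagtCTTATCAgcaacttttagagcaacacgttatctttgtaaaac
acaa-2: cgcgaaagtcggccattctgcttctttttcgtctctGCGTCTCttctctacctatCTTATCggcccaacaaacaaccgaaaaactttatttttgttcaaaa

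The last group has neither an E-box nor one of those GATA-type sequences, and it includes the strong peaks of acdh-9 and cpt-2. Its windows are chrII:848674-848774 (minus) for acdh-9, with GCGTCTC at 2 places, chrIII:10566074-10566174 (plus) for acdh-11, with the same letters on the other strand, and chrIV:11179375-11179475 (plus) for cpt-2, with none of the marked sequences.
acdh-9: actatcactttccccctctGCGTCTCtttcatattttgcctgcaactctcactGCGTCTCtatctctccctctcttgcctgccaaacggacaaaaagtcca
acdh-11: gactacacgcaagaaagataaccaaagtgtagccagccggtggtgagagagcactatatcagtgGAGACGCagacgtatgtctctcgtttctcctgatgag
cpt-2: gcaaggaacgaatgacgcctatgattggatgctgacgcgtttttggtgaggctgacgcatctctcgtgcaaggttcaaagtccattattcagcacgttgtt

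A peak of HLH-11 was present at the start of 15 of the 30 genes (50%), against 21.3% of all protein-coding genes. A gene is called bound here when the summit of a peak in the thresholded list lies between 1000 bp upstream and 500 bp downstream of an annotated start. That list holds 7863 peaks that the authors kept by the irreproducible discovery rate, and they are the strongest 7863 of the 30000 peaks of the pooled replicates. Read depth is unknown, since only peaks and not reads are listed. No test was made of the difference in shares, since the genes were chosen with earlier results of these data known. The steps differed in their counts. The synthetase acs-2, the hydroxyacyl-CoA dehydrogenase hacd-1, both thiolases and let-721 were bound. Of the carnitine palmitoyltransferases 3 of 6 were, of the acyl-CoA dehydrogenases 5 of 12, and of the hydratase and isomerase family 2 of 7. Several steps hold 1 or 2 genes, so a count of all or none there rests on very few genes.

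**Figure D1:**
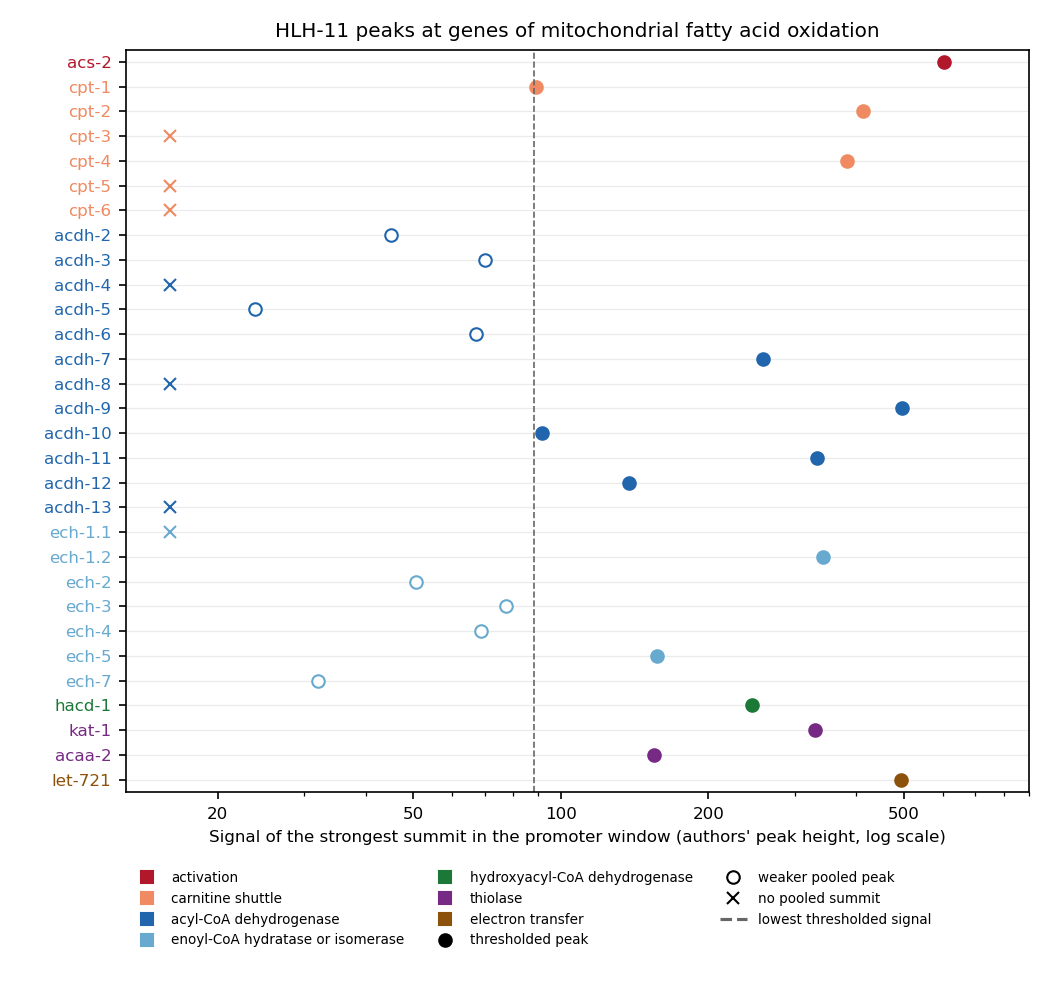
Signal (the authors' peak height, log scale) of the strongest summit in the promoter window of each of the 30 genes, coloured by step; filled circles are thresholded peaks, open circles weaker pooled peaks, crosses genes with no pooled summit (placed at the left edge, with no value), and the dashed line is the lowest thresholded signal, 88.3. Of the 15 bound genes, acs-2 is highest at 605, and cpt-1 and acdh-10 sit just above the line.

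Peaks at the bound genes ranged widely in strength. Their strongest summits ranged from 88.9 at cpt-1 to 605 at acs-2 in signal, with a median of 329, against a median of 205 over all 4247 bound genes. Of the 15, 10 were above that second median, and 5 (cpt-1, acdh-10, acdh-12, acaa-2 and ech-5) were under 181, the median of all thresholded peaks. The peak signal is a height given by the authors, used here only within a list.

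Activation was marked by the strongest peak of the set. The acs-2 gene (WBGene00009221, chromosome V, 15567394 to 15569897, plus strand) had a summit 702 bp upstream of its start in intergenic sequence, with a signal of 605 and rank 585 of 7863. The matched peak ranked 987 in replicate 1 (signal 204) and 442 in replicate 2 (signal 403), so it was among the strongest 1000 of both. By strongest signal, acs-2 ranked 399 among the bound genes. The next protein-coding gene upstream, acr-18, lies 8246 bp away and faces the other way, and no other gene had this summit in its window. A pooled summit 498 bp upstream (signal 26.2) and another 428 bp downstream in coding sequence (34.5) were far weaker.

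In the carnitine shuttle, cpt-2 and cpt-4 had peaks of ranks 1165 and 1336, cpt-1 had a weak one and cpt-3, cpt-5 and cpt-6 had none. The gene of the inner-membrane enzyme, cpt-2 (WBGene00011122, IV, 11179645 to 11183008, plus strand), had a summit 220 bp upstream with a signal of 413, rank 868 in replicate 1 and 1567 in replicate 2. That summit also lay in the window of the divergent gene C08F8.9. At cpt-4, a further member of the family, a summit 127 bp upstream had a signal of 384 (ranks 1419 and 1312 in replicates 1 and 2). A second thresholded peak lay in an intron of cpt-4, 1067 bp downstream of its start and outside the window, with a signal of 269. In cpt-1, which encodes the outer-membrane enzyme, a weak summit stood in coding sequence 283 bp downstream of the start. Its signal of 88.9 put it at rank 7816, close to the end of the list, and its ranks of 12984 in replicate 1 and 6374 in replicate 2 lay on either side of 7863. No pooled summit of any strength was found in the windows of cpt-3, cpt-5 and cpt-6. The nearest thresholded summit was 6810 bp from the start of cpt-3 and 5185 bp from that of cpt-5. At cpt-6 an intronic summit lay 1164 bp downstream (signal 209) and an intergenic one 1564 bp upstream (90.6).

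Among the acyl-CoA dehydrogenases, which introduce a double bond next to the thioester, acdh-9 had the strongest peak. Its summit was 121 bp upstream, with a signal of 496 and ranks of 1185 and 750 in replicates 1 and 2. The gene (WBGene00017874, II, 846864 to 848603, minus strand) and its divergent neighbour F28A10.13 are 208 bp apart, and the summit lay closer to the start of the neighbour. The acdh-11 gene, known for a role in adaptation of fat desaturation to heat, had a summit 134 bp upstream with a signal of 333 (ranks 1535 and 2074). At acdh-12, whose closest human relative is the very-long-chain enzyme, the summit was 563 bp upstream with a signal of 138 (ranks 6777 and 4842). It was shared with the divergent gene maoc-1, which encodes a hydratase of peroxisomal fat breakdown, and it was nearer to that gene.

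The medium-chain type genes acdh-7, acdh-8 and acdh-10 differed from each other. The acdh-7 gene on X had summits 179 bp (signal 258) and 422 bp (132) upstream, and a further thresholded peak in its intron 691 bp downstream (233). The 179 bp summit ranked 4733 in replicate 1 and 1680 in replicate 2, and the 422 bp summit 14314 and 3558, so the second was weak in replicate 1. The acdh-10 gene starts 114 bp beyond the end of acdh-7 on the same strand, the only 2 of the 30 genes that adjoin. It had no thresholded summit upstream within its window. The 1 thresholded summit in that window, 325 bp downstream in coding sequence, was weak (signal 91.4, ranks 9596 and 6537). No pooled summit lay in the window of acdh-8, whose nearest thresholded summit was 9806 bp from its start. That gene starts 92 bp beyond the end of lect-2 on the same strand. The other unbound dehydrogenase genes were acdh-2 to acdh-6 and acdh-13.

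In the hydratase and isomerase family, whose main members add water to the double bond, ech-1.2 and ech-5 were bound. In ech-1.2, which encodes the alpha subunit of the mitochondrial trifunctional protein, 2 intronic summits lay close to annotated starts, 189 bp downstream (signal 342, ranks 1104 and 2031) and 191 bp upstream (204, ranks 3343 and 3599). Its paralogue ech-1.1 had no pooled summit in the window, and the nearest thresholded summit was 5856 bp from its start. The gene hadb-1 (B0303.3), for the beta subunit of the same complex and not among the 30, was bound 297 bp upstream with a signal of 337. At ech-5 a summit 150 bp upstream, shared with the divergent gene F56B3.11, had a signal of 157 (ranks 4276 and 5137). The ech-2, ech-3, ech-4 and ech-7 genes were not bound. Outside the 30, ech-6 (signal 207) and ech-9 (187) were bound and ech-8 was not. The count for this family therefore depends on which ech genes were listed.

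The last steps had peaks at every gene of the list. For hacd-1, the second dehydrogenase of the cycle, the summit lay 701 bp upstream with a signal of 245 and ranks of 2408 and 2867 in replicates 1 and 2. The thiolase gene kat-1 (WBGene00002183, II, 7073814 to 7075511, plus strand), whose loss is known to raise stored fat in worms lacking a cilium-related gene, had a summit 417 bp upstream with a signal of 329 (ranks 2113 and 1416). That summit also lay in the window of kars-1, the divergent gene of a lysyl-tRNA synthetase. At acaa-2, another thiolase gene, the summit was 157 bp upstream with a signal of 155 (ranks 5486 and 4466). The let-721 gene (WBGene00002855, III, 6444693 to 6446907, minus strand) encodes the oxidoreductase that passes the electrons of acyl-CoA dehydrogenases to ubiquinone. Its summit, 822 bp upstream in intergenic sequence, had a signal of 494 and ranks of 928 and 842, among the strongest 1000 of both replicates.

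Most summits at the bound genes lay upstream. The 15 genes had 17 thresholded summits in their windows, 14 of them upstream (82.4%), against 85.8% of the 4171 promoter summits of the whole list. The median distance to the start was 220 bp, against 216 bp over all promoter summits. Of the 14, 8 lay between 121 and 220 bp upstream and 6 between 417 and 822 bp, and acdh-7 had 1 in each range. The share of all promoter summits in these ranges was not taken. The farther 6 included those of acs-2, let-721, hacd-1 and kat-1. Intergenic sequence held 13 of the 17, and the other 4 were those in ech-1.2, cpt-1 and acdh-10. The intergenic share of all promoter summits was not taken. Of the 17, 5 also lay in the window of another protein-coding gene (29.4%), against 18.6% of all promoter summits. The genes acdh-7 and ech-1.2 had 2 thresholded summits each and the other 13 had 1. Those 2 genes were 13.3% of the 15, against 14.2% of all 4247 bound genes with 2 or more summits.

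**Figure D2:**
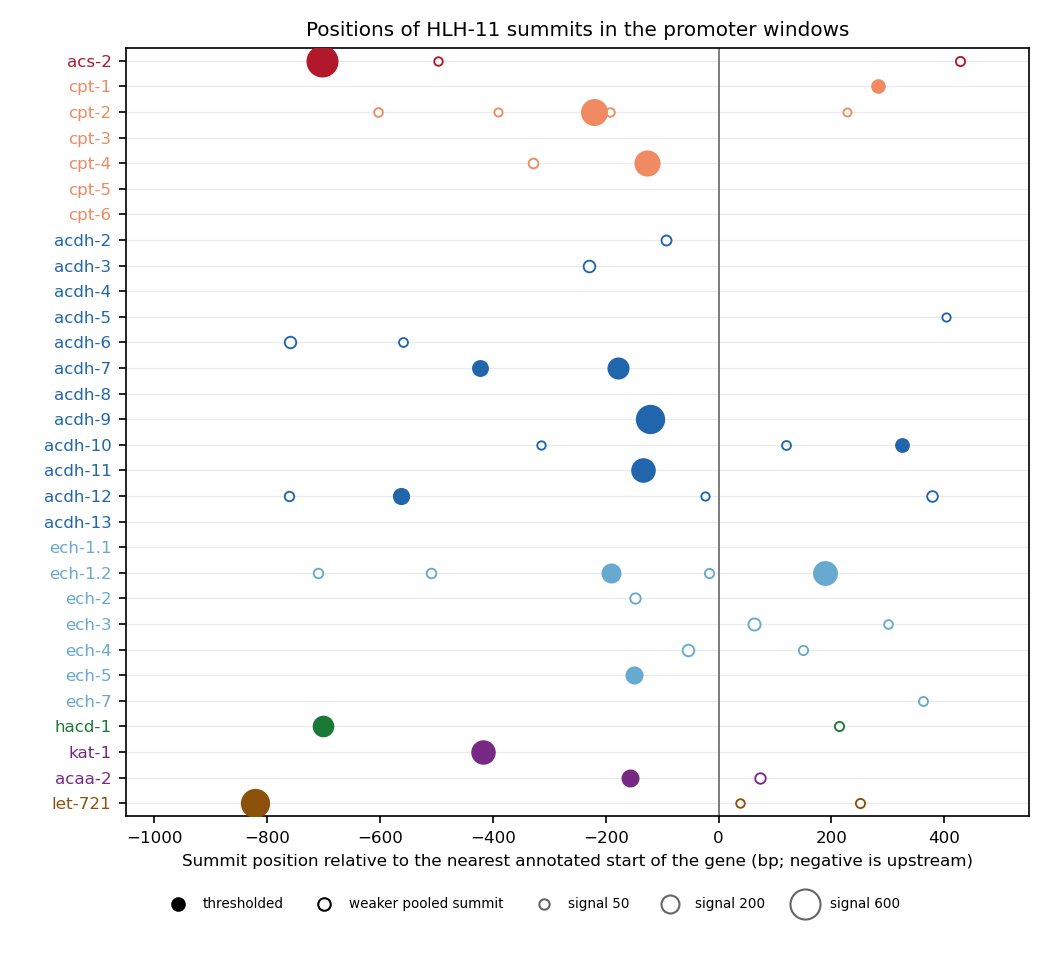
Position of every pooled summit in the promoter windows of the 30 genes, in bp from the nearest annotated start (negative is upstream); filled circles are thresholded summits, open circles weaker ones, and circle area grows with signal. The summits of acs-2, hacd-1 and let-721 lie 701 to 822 bp upstream, while those of cpt-4, acdh-9 and acdh-11 lie within 134 bp of the start.

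Replicate support for these peaks was close to that of promoter peaks in general. All 17 thresholded summits had a partner within 100 bp in the whole list of each replicate, as did 95.8% of all promoter summits. Among the strongest 7863 peaks of each replicate, 14 of the 17 had a partner in both (82.4%), against 80.4% of promoter summits. The exceptions were the summits of cpt-1 and acdh-10 and the second summit of acdh-7, and in each case the partner in replicate 1 was the weaker by rank. With replicate 2 left out, cpt-1 and acdh-10 were lost and ech-3 was gained, leaving 14 bound genes. With replicate 1 left out, ech-4 was gained and none was lost.

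**Figure D3:**
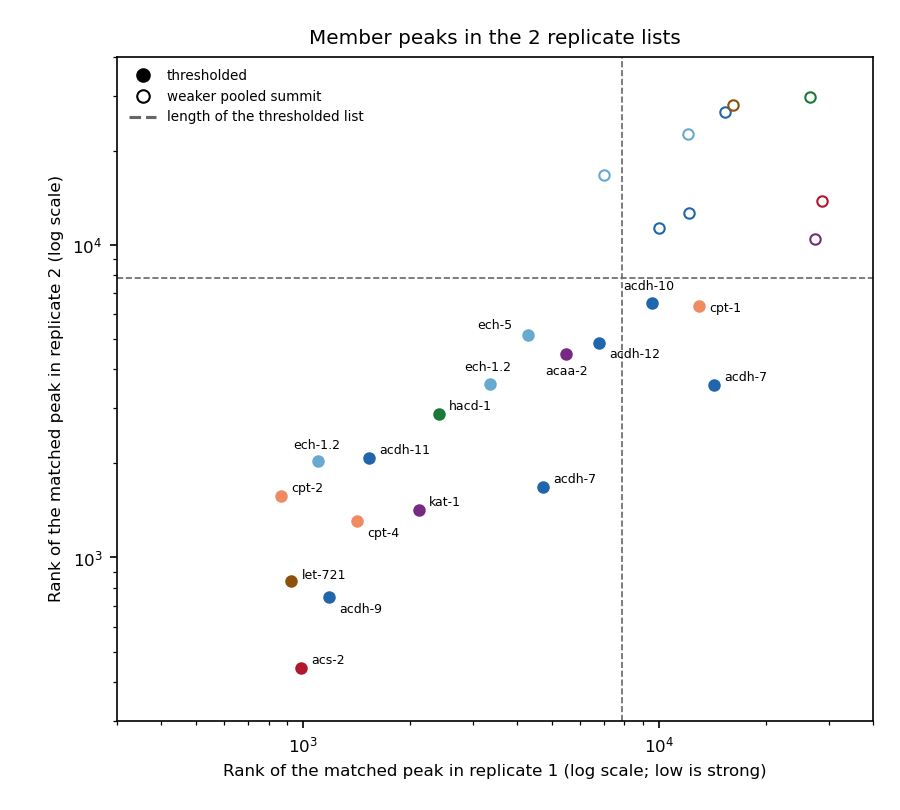
Rank of the matched peak in replicate 1 (x) and replicate 2 (y), log scales, low ranks being strong, for pooled summits with a partner within 100 bp in both lists; filled circles are thresholded and labelled with the gene, open circles weaker, and dashed lines mark rank 7863. All but 3 of the 17 thresholded summits lie inside both lines, and those 3, at cpt-1, acdh-10 and acdh-7, are beyond the line in replicate 1.

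Weaker summits were found at 8 of the 15 unbound genes (53.3%), against 24.6% of all unbound protein-coding genes. Counting any pooled summit, 23 of the 30 genes had one (76.7%), against 40.6% of all genes. The strongest of these were at ech-3 (signal 77.2, rank 8756 of the pooled list), acdh-3 (70.2, rank 9430), ech-4 (68.7, rank 9590) and acdh-6 (67.1, rank 9760), so 4 genes came within the strongest 10000 pooled peaks. The remaining 4 were ech-2 (50.7), acdh-2 (45.0), ech-7 (32.0) and acdh-5 (23.8). Summits at ech-3 and acdh-6 alone had a partner in the lists of both replicates. The share of all unbound protein-coding genes with such a summit was not taken. At ech-3 the summit lay 62 bp downstream of the start in the 5' UTR, with ranks of 7022 and 16716 in replicates 1 and 2. At acdh-6 it lay 760 bp upstream with ranks of 10018 and 11353. By signal, cpt-1 (88.9) and acdh-10 (91.4) were the lowest bound genes, and ech-3 (77.2) and acdh-3 (70.2) the highest unbound ones. The acdh-3 summit had no partner in replicate 1, while those of cpt-1, acdh-10 and ech-3 had partners in both replicates. The 7 genes with no pooled summit were cpt-3, cpt-5, cpt-6, acdh-4, acdh-8, acdh-13 and ech-1.1.

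Some unbound genes had thresholded peaks beyond the window. Within 5000 bp of a start, 7 of the 15 had one (46.7%), against 32.3% of all unbound protein-coding genes. For 5 of the 7 the nearest was 3090 to 4111 bp away. The closest was at ech-2, where a peak with a signal of 331 (ranks 2025 and 1510 in replicates 1 and 2) lay 1028 bp upstream, inside the non-coding gene F38H4.15. A second peak (144) lay in the 3' UTR of ech-2 and in an intron of tag-30, whose promoter window held it. The tallest was at acdh-2, in intergenic sequence 3934 bp downstream of its start and past the end of the gene, with a signal of 965 and rank 205. The peaks near acdh-5, acdh-6 and ech-4, and those upstream of ech-3, stood in windows or introns of neighbouring genes such as cye-1 and sptl-2.

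The letters at the summits, searched on both strands, varied among the bound genes. An E-box of any kind lay within 50 bp of 8 of the 17 summits (47.1%), against 44.1% of all thresholded summits, so it was no more frequent here. CACATG was at 4 summits (23.5%), against 8.19% of all, and these were those of acs-2, let-721, cpt-4 and acdh-12. In the acs-2 window it occurs at both ends, as CATGTG from base 11 and as CACATG from base 73, with CAAATG from base 40 between them. In let-721 it starts at base 40 and in cpt-4 at base 53, next to the summit. CAGCTG, the E-box known for AP-4, was at none of the 17, against 4.34% of all summits, and CACGTG at none, against 5.84%.

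The GATA-type sequence CTTATC, a form of the sites recognised by GATA factors, was at 6 of 17 summits (35.3%), against 17% of all. They were those of hacd-1, acaa-2, let-721, acdh-12, acdh-7 and ech-1.2. Sequences with GATA other than CTTATC and TGATAA were not counted. TGATAA, which can overlap CTTATC, was at 2 (11.8%), against 24.1%, but within 100 bp at 7 (41.2%), against 36.4%. GAGAGA was at 6 (35.3%), against 24.3%, and within 100 bp still at 6 (35.3%), against 38.1%. It is not marked in the sequences above and was at acdh-7, acdh-9, acdh-11, cpt-2, ech-1.2 and let-721. AGGTCA, a core of many nuclear receptor sites, was at none, against 3.64%. GCGTCTC, chosen after the sequences had been read, was at 3 (17.6%), against 7.67%, in acdh-9, acdh-11 and acaa-2. Each difference comes to a few summits. The GC content within 50 bp of the summit ranged from 32.7% to 63.4% with a median of 45.5%, against a median of 43.6% at all promoter summits.

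Related genes outside the 30 showed peaks at similar or higher shares. Of 36 further genes of activation, carnitine supply and oxidation, 34 were matched and 21 were bound (61.8%), against 21.3% of all genes. The acyl-CoA synthetases other than acs-2 were bound at 11 of 20, led by acs-7 (signal 479), acs-1 (425) and acs-17 (373). All 3 carnitine genes were bound: dif-1 (289), a mitochondrial carrier gene of the carnitine-acylcarnitine type, and gbh-2 (257) and gbh-1 (213), which encode relatives of the hydroxylase that ends carnitine synthesis. Of 4 further hydroxyacyl-CoA dehydrogenase or thiolase genes 3 were bound, led by B0272.3 (475) and hadb-1 (337). F54C8.1 of that group was unbound, with no pooled summit in its window. Of 5 further dehydrogenase or hydratase genes 3 were bound: ivd-1, for isovaleryl-CoA dehydrogenase (314), ech-6 (207) and ech-9 (187). T02G5.7, next to kat-1, had its strongest summit inside kat-1, 1267 bp downstream of the kat-1 start (signal 126), with no partner in replicate 1. Of the 2 genes listed for the electron transfer flavoprotein, F23C8.5 was bound (103) and F27D4.1 had a weaker pooled summit only. The dehydrogenase gene acdh-1, of the propionate breakdown route, was unbound, with a pooled summit just under the threshold (84.6).

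Under each of the 10 other settings a larger share of the 30 genes than of all genes was bound, and 6 genes were bound in every one. These were cpt-2, cpt-4, acdh-7, acdh-11, ech-1.2 and kat-1. With promoters of 500 bp, acs-2, acdh-12, hacd-1 and let-721 were lost, all with summits over 500 bp upstream, and 11 were bound against 17.2% of all genes. With each peak given to the gene of the nearest start, acdh-9 and acdh-12 were lost to their divergent neighbours. With the strongest 3931 peaks, 10 were bound (12.4% of all genes), and cpt-1, acdh-10, acdh-12, ech-5 and acaa-2 were lost. The 9 genes never bound were cpt-3, cpt-5, acdh-2, acdh-4, acdh-5, acdh-8, acdh-13, ech-1.1 and ech-7.

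**Figure D4:**
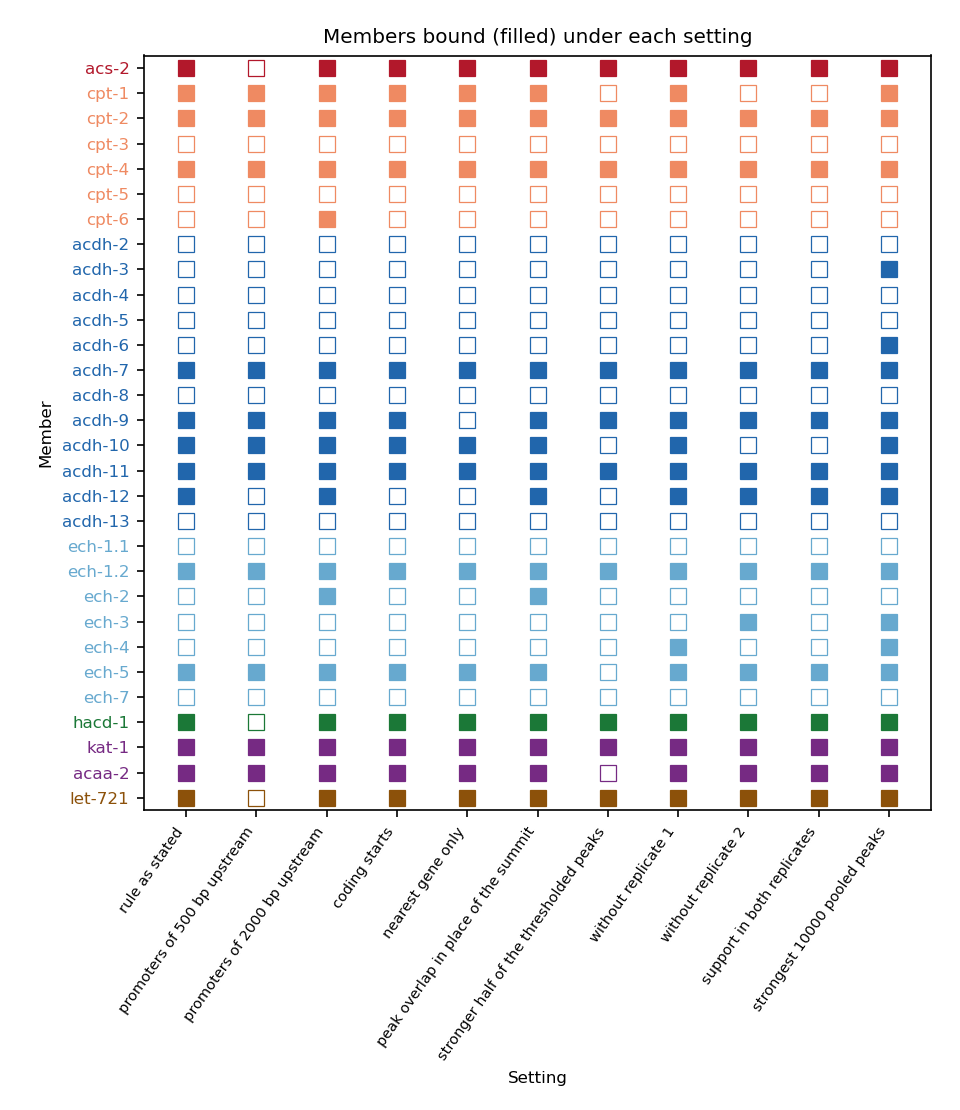
Each row is a gene coloured by step, each column a setting, and filled squares mark genes bound in it and open squares genes that were not; the first column is the rule as stated. The rows of cpt-2, cpt-4, acdh-7, acdh-11, ech-1.2 and kat-1 are filled throughout, and 9 rows are open throughout.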

How the data were processed

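ChIP-seq peak lists of 2 biological replicates and of their pool were used, in the ENCODE narrowPeak format per the accompanying notes. Per the deposited files, each of the 3 input lists holds 30000 peaks, strong and background together, with a peak signal given by the authors and a summit offset. The thresholded list was derived from these by the authors with IDR. The labels give build ce11 and chromatin sheared to 200 to 800 bp. Aligner and caller: not given in the sources used here. Summits were placed at the peak start plus the offset and assigned to starts of protein-coding transcripts of Ensembl release 115 (WBcel235, whose chromosomes hold every ce11 peak). Letters came from the RefSeq WBcel235 genome. Peaks matched between lists when summits lay within 100 bp. The window rule was tested on simulated data. Python 3.11.15, pandas 2.3.3 and numpy 2.4.6 were used.

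The members, the other pathway genes and the motifs were chosen with earlier results of these data known, so counts are descriptions without tests. All members were named, as were up to 8 of the other pathway genes with the strongest signal and genes that share a summit with a member. T02G5.7, F54C8.1, F23C8.5, F27D4.1, gbh-1, gbh-2, acdh-1, ech-6, ech-8, ech-9 and neighbours without a shared summit were named after their values were seen. The genes acs-8 and T02G5.4 had no protein-coding match. GCGTCTC and the setting with 10000 pooled peaks were chosen after seeing the data.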

Additional observations from a re-analysis of the deposited data

How the results depend on the processing

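The count of bound genes was 15 of 30 and ran from 10 to 19 over 10 other settings. The share of all genes was 21.3%. The count was 11 with promoters of 500 bp (17.2% of all genes), 17 with longer promoters (26.7%), 14 with coding starts (20.6%) and 13 with the nearest gene alone (17.8%). It was 16 with peak overlap (22.8%), 10 with the strongest 3931 peaks (12.4%), 13 with support in both replicates (17.9%) and 19 with the strongest 10000 pooled peaks (24.8%). Leaving out replicate 1 gave 16 (20.8%) and leaving out replicate 2 gave 14 (21.9%).

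By step, promoters of 500 bp left 0 bound genes of activation, of hydroxyacyl-CoA dehydrogenation and of electron transfer, since those summits lie farther upstream. Of the acyl-CoA dehydrogenases 3 were bound with the nearest gene alone and 3 with the strongest 3931 peaks. The hydratase family had 1 and the thiolases 1 with those 3931 peaks, and the hydratase family had 4 with the strongest 10000 pooled peaks. Unbound genes with a weaker summit numbered 2 when a partner in both replicate lists was asked for, against 8 otherwise. The share of all unbound protein-coding genes was not taken under that condition.

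Within 25 bp, CACATG was at 2 summits (11.8%, against 4.01% of all summits) and CTTATC at 3 (17.6%, against 9.42%). Within 100 bp, CACGTG was at 2 (11.8%, against 9.59%), TGATAA at 7 (41.2%, against 36.4%), GAGAGA at 6 (35.3%, against 38.1%) and CAGCTG at 0 (against 7.36%), so the first 3 differences changed direction with the window. The lists hold no reads, so the precision of each signal is unknown. No paired analysis was possible because the series has 1 group.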
